A study of Arabidopsis thaliana with 22 samples.

Results

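Acetylation of histone H3 at lysine 23 (H3K23Ac) was compared between *Arabidopsis thaliana* Col-0 seedlings exposed to ethylene and Col-0 seedlings kept in air. The comparison used the Col-0 H3K23Ac peak list with ethylene, which holds 12950 peaks, and the Col-0 H3K23Ac peak list in air, which holds 5012 peaks. Together they are 17962 of the 105488 peaks in the 10 lists of the study. All peaks of both lists were members, and a peak was called shared when it overlapped a peak of the other list by at least 1 bp. This rule gave 8635 ethylene-only peaks, 4315 shared peaks in the ethylene list, 4424 shared peaks in the air list and 588 air-only peaks.

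The ethylene group was wild-type Col-0 as dark-grown seedlings aged 3 days, exposed for 4 h to ethylene at 10 p.p.m. in hydrocarbon-free air. The air group was wild-type Col-0 of the same age and growth, given hydrocarbon-free air alone for 4 h. Chromatin came from whole seedlings, so in these bulk samples fewer cells with the mark and less of the mark per cell cannot be told apart. Each group had 2 ChIP libraries, which the authors pooled before peak calling. The study also profiled other acetylated lysines of H3 and the ethylene-insensitive mutant *ein2-5*, and those lists are used here only for overlap.

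Acetylation neutralises the positive charge of lysines in the histone tail, and acetylated H3 is commonly found over the first nucleosomes of transcribed genes. Lysine 23 lies on the same tail as lysines 9 and 14, which are the more often studied sites. Ethylene is a gaseous plant hormone. Its receptors act through the kinase CTR1 on EIN2, a membrane protein whose C-terminal part moves into the nucleus when ethylene binds, and the transcription factors EIN3 and EIL1 then drive the response. In dark-grown seedlings ethylene gives a short hypocotyl and root and a tightened apical hook.

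The lists differed in the depth behind them. The ethylene list rests on 37674460 ChIP tags and 10479732 tags of the IgG control, an immunoprecipitation that gives the background of the assay. The air list rests on 32215289 ChIP tags and 2438541 control tags. These are the tags the peak caller used after duplicate reads were removed, as the file headers give them. The study lists mapped IgG reads of like number for both treatments, and why so few were left in the air control is not given in the sources used here. The caller brought the larger set of tags down to the smaller, which was the control in both lists. Against the genome-wide background, the smallest fold enrichment that could pass the caller's P threshold of 0.01 was 1.58 in the ethylene list and 2.1 in the air list. Control depth and treatment cannot be told apart here. Peaks were therefore ranked by −log10 P within their own list, and fold enrichment was not compared between lists. In a setting called common control depth below, the coverage and background at each ethylene summit were scaled to the control tags of the air list, and only ethylene peaks that still passed the P threshold in a Poisson recomputation stayed in. All air peaks stayed as called, so this setting could only remove ethylene peaks and could only raise the number of air-only peaks and genes. With 1 pooled list per treatment there was no replicate, so no test between treatments was possible. The 95% Wilson intervals given for shares cover counting error only.

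The sequences under some of the highest-ranked summits are shown as examples of marked coding sequence. Each is the 150 bp around a summit in TAIR10 coordinates, read from the RefSeq TAIR10.1 genome, printed 5′ to 3′ on the strand of the gene, with the 11 bases around the summit in capitals. The windows were limited to those with no UTR base, a choice that leaves coding exons and introns, so it partly sets their place. The highest-ranked such ethylene-only windows lay in coding exons of 2 genes of unknown function. Their summits were 542 bp and 644 bp from the gene start.
AT2G43540, chr2:18072594-18072743, + strand: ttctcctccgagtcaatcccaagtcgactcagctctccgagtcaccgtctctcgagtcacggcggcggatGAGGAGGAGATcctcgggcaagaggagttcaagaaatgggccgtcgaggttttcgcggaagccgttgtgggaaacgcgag
AT2G22790, chr2:9696401-9696550, + strand: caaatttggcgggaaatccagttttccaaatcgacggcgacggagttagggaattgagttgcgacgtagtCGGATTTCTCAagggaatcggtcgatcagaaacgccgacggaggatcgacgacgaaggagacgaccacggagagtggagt
The highest-ranked shared windows lay in *AT4G27280*, which encodes a calcium-binding EF-hand protein, and in *TPR14*, which encodes a tetratricopeptide repeat protein.
AT4G27280, chr4:13663956-13664105, - strand: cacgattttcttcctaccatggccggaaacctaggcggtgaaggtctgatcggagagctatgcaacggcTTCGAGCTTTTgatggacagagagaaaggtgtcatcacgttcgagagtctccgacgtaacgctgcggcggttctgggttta
TPR14, chr5:26031763-26031912, - strand: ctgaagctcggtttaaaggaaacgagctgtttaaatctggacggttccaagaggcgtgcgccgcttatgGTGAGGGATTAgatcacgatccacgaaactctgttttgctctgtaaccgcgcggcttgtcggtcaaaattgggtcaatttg
The highest-ranked air-only windows lay in *AGP1*, which encodes an arabinogalactan protein of the cell surface, and in *AT2G32020*, which encodes an acyltransferase of the N-acyltransferase superfamily.
AGP1, chr5:25722163-25722312, + strand: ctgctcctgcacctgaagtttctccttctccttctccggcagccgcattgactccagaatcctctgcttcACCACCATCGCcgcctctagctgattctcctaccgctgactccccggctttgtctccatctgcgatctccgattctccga
AT2G32020, chr2:13631500-13631649, - strand: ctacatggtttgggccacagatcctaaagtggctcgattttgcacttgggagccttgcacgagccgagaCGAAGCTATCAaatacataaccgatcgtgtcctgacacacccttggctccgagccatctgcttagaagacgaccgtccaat
A last set shows ethylene-only summits in genes of ethylene synthesis and response. *ACO4* encodes an ACC oxidase, the enzyme of the last step of ethylene synthesis. *ARL* encodes an ARGOS-like protein of organ growth. *RAN1* encodes a copper transporter that loads the receptors, and *ENAP1* encodes a nuclear partner of EIN2.
ACO4, chr1:1431888-1432037, - strand: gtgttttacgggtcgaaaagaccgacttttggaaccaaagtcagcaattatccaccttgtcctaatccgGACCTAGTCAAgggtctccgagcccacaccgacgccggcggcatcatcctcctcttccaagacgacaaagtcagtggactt
ARL, chr2:18237831-18237980, + strand: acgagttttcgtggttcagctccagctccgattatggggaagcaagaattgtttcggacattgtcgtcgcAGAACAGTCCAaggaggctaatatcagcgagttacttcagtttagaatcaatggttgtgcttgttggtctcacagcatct
RAN1, chr5:18079637-18079786, - strand: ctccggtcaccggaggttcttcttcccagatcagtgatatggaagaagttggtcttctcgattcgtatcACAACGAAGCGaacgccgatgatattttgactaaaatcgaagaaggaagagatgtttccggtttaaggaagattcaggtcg
ENAP1, chr3:3477115-3477264, - strand: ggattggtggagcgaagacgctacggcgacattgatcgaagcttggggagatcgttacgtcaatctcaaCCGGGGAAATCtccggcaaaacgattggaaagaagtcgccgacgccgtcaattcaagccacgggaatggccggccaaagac
The GC content of these 10 windows was between 45.3% and 59.3%.

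Most of the air peaks had a counterpart with ethylene, and most ethylene peaks had none in air. Of the ethylene peaks, 66.7% overlapped no air peak (95% interval 65.9 to 67.5%). Of the air peaks, 11.7% overlapped no ethylene peak (10.9 to 12.7%). The ethylene peaks covered 5.31 Mb, and the air peaks covered 1.72 Mb. These shares changed with the length and depth of the lists. When each list was limited to its 5012 highest-ranked peaks, 45.5% of the ethylene peaks had no air peak and 43.3% of the air peaks had no ethylene peak. At the common control depth 5869 ethylene peaks were kept, of which 48.8% had no air peak, while 37.8% of the air peaks then had no ethylene peak. Among peaks with a fold enrichment of at least 2 the same shares were 61.8% with ethylene and 42.8% in air. In every setting run except equal length the ethylene list was the longer, so a smaller part of it could be shared. Its unshared share was the larger in each of these settings. At equal length the 2 shares are held close by the setting itself, since overlapping peaks are mostly taken from both lists in pairs. The small gap there reflects ethylene peaks that span several air peaks. Equal length therefore cannot show which list had more unshared places.

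**Figure D1:**
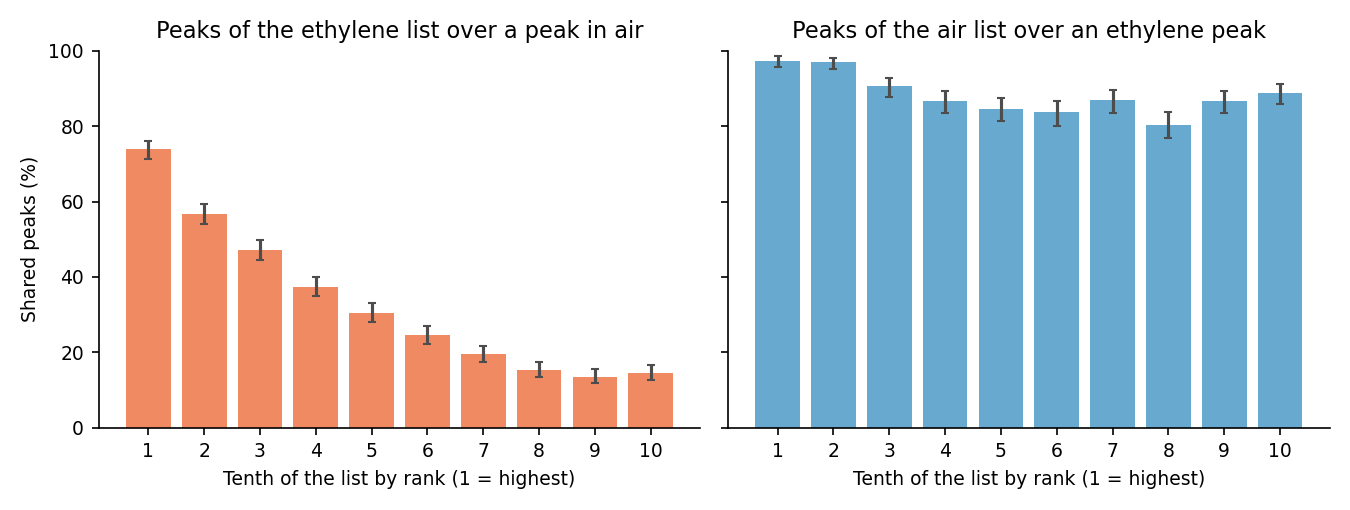
Share of peaks that overlapped a peak of the other list, in 10 equal parts of each list ranked by −log10 P (1 is the highest), for the ethylene list (left) and the air list (right). Bars are percentages and error bars are 95% Wilson intervals. The ethylene list is at 73.8% in the highest part and 14.5% in the lowest, and the air list, which is shorter, is between 80.4% and 97.4%.

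Within the ethylene list, peaks of high rank were shared more often than peaks of low rank. In the highest-ranked 10% of the ethylene list, 956 of 1295 peaks (73.8%) overlapped an air peak. The share was 30.5% in the fifth of the 10 parts and 14.5% in the lowest. In the air list, 488 of 501 peaks of the highest-ranked 10% (97.4%) overlapped an ethylene peak, and 88.8% of the lowest-ranked 10% did. The ethylene list is the longer, so a smaller part of it could be shared, and the plot of shared peaks by rank is read within each list. Ethylene-only peaks were not all weak: 1220 of the 8635 (14.1%, 13.4 to 14.9%) were in the highest-ranked 25% of their list, against 46.7% of the shared ethylene peaks. At the common control depth, 2863 of the ethylene-only peaks (33.2%) were kept, against 3006 of the 4315 shared peaks (69.7%).

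Where both lists had a peak, the peaks sat at nearly the same place. Taking each peak once with its longest overlap gave 4293 pairs. The summits of a pair were a median of 24 bp apart, and 89% of pairs had summits within 100 bp. The ethylene peak was the wider one in 83.4% of pairs, with a median width of 442 bp, against 307 bp for its air partner. The median ratio of ethylene to air width was 1.34, with quartiles of 1.09 and 1.77. The smallest fold that could be called was lower with ethylene, at 1.58 against 2.1 in air. Control depth and treatment cannot be told apart in these widths, nor in widths of single genes set between the lists below. Among the shared ethylene peaks, 131 spanned 2 or more air peaks, and 27 air peaks spanned 2 or more ethylene peaks. Ranks were only loosely shared: Spearman's rho of the ranks over the 4293 pairs was 0.23, given as a description because the pairs come from the same 2 lists. Of the 488 air peaks of the highest-ranked 10% with a partner in these pairs, 42% had that partner in the highest-ranked 10% of the ethylene list and 70.9% had it in the highest-ranked 25%.

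Ethylene-only peaks were narrow beside the shared peaks of their list. Their median width was 313 bp (quartiles 248 and 416 bp), against 442 bp (335 and 606 bp) for shared ethylene peaks. Air-only peaks had a median width of 246 bp (222 and 290 bp), against 306 bp (247 and 402 bp) for shared air peaks. Only 61 ethylene-only peaks reached 1000 bp, against 286 shared ethylene peaks, and no air-only peak did. A wide peak can meet the 1 bp rule more easily, so the class definition itself favours wide shared peaks. Width also fell with rank, from a median of 546 bp in the highest-ranked 10% of the ethylene list to 270 bp in the lowest. The classes were not matched in rank for width. The median fold enrichment was 1.93 for ethylene-only peaks and 2.15 for shared ethylene peaks. In the air list it was 2.58 for air-only peaks and 2.52 for shared peaks, so the unshared air peaks were narrower but not lower in fold enrichment. By −log10 P the air-only peaks were lower, with a median of 3.56 against 3.89 for shared air peaks. The control background at the summit was also lower at unshared peaks. It was a median of 1.43 times the genome-wide background at ethylene-only summits, against 1.74 times at shared ethylene summits. It was 1.28 times at air-only summits, against 1.6 times at shared air summits. The part of this background in the sharing of peaks was not tested.

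**Figure D2:**
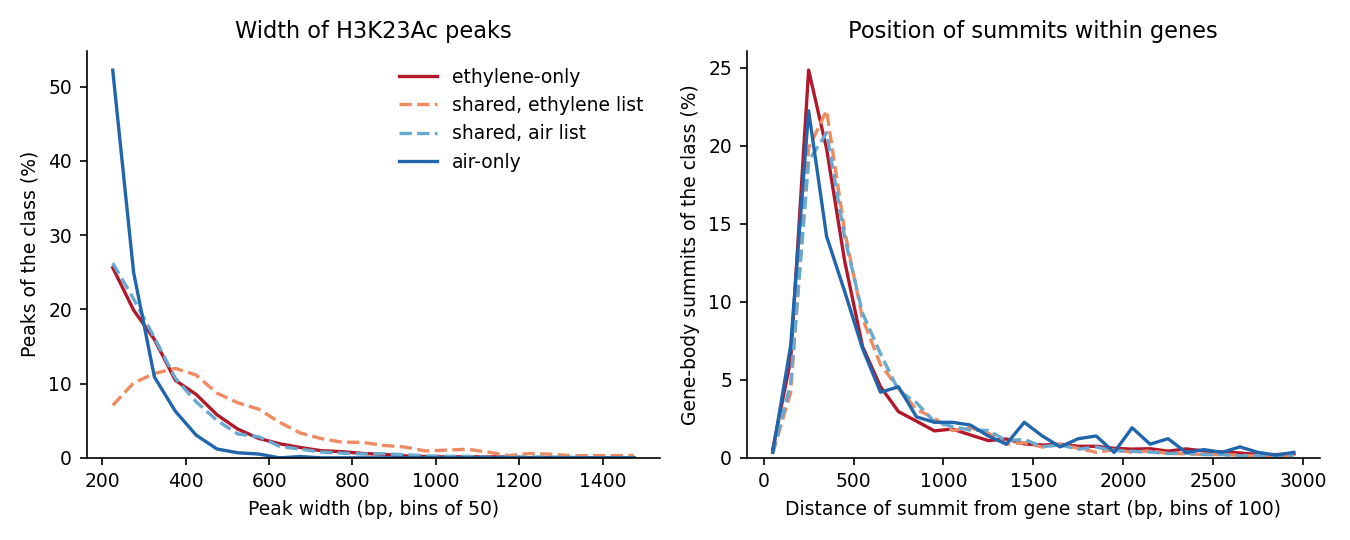
Left, peak width in bp (bins of 50 bp) against the percentage of peaks of each class. Right, distance of the summit from the gene start in bp (bins of 100 bp) against the percentage of gene-body summits of the class. Solid lines are ethylene-only (red) and air-only (blue) peaks and broken lines are shared peaks of the ethylene list (orange) and of the air list (light blue). The 4 classes rise at the same distance, with medians from 390 to 456 bp, while the shared ethylene peaks are wider than the rest.

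All classes of peak lay mainly in the first part of protein-coding genes. The summit was inside a gene body for 89.1% of ethylene-only peaks (88.5 to 89.8%) and 97.8% of shared ethylene peaks (97.4 to 98.2%). It was inside a gene body for 97.1% of air-only peaks (95.4 to 98.2%) and 97.9% of shared air peaks. The median distance of gene-body summits from the gene start was 390 bp for ethylene-only peaks, 420 bp for shared ethylene peaks, 430 bp for shared air peaks and 456 bp for air-only peaks. Summits past the middle of the gene were 16.8% of ethylene-only, 16.2% of shared ethylene and 16.8% of shared air summits. Among air-only summits the share was 25% (21.7 to 28.8%). Genes under ethylene-only summits were longer, with a median of 2476 bp (95% order-statistic interval over peaks 2449 to 2505 bp), against 2261 bp (2218 to 2303 bp) under shared ethylene summits. The part of gene length in the gene parts described next was not tested. A gene with no summit in either list had a median length of 1840 bp.

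Ethylene-only summits differed from the 3 other classes in the gene part they lay on. Of those in gene bodies, 1472 of 7698 (19.1%, 18.3 to 20%) were in introns, against 250 of 4222 (5.92%, 5.25 to 6.67%) for shared ethylene summits. The share in introns was 4.99% for shared air summits and 5.43% (3.85 to 7.6%) for air-only summits. Coding exons held 69.7% of ethylene-only summits and 88.5% of shared ethylene summits, and 5′ UTRs held 9.63% and 5.09% of the same classes. Air-only summits lay in coding exons in 89.3% of cases. The difference was not confined to weak peaks. In the highest-ranked 25% of the ethylene list, 9.44% of ethylene-only summits (7.88 to 11.3%) and 3.85% of shared summits (3.09 to 4.79%) were in introns. Among peaks kept at the common control depth the shares were 14% and 4.94% for the same classes. *EIN3* itself, *RTE1*, which acts with the receptor ETR1, and *ASB1*, a subunit of anthranilate synthase in tryptophan synthesis, had their ethylene summit in an intron and no air summit.

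**Figure D3:**
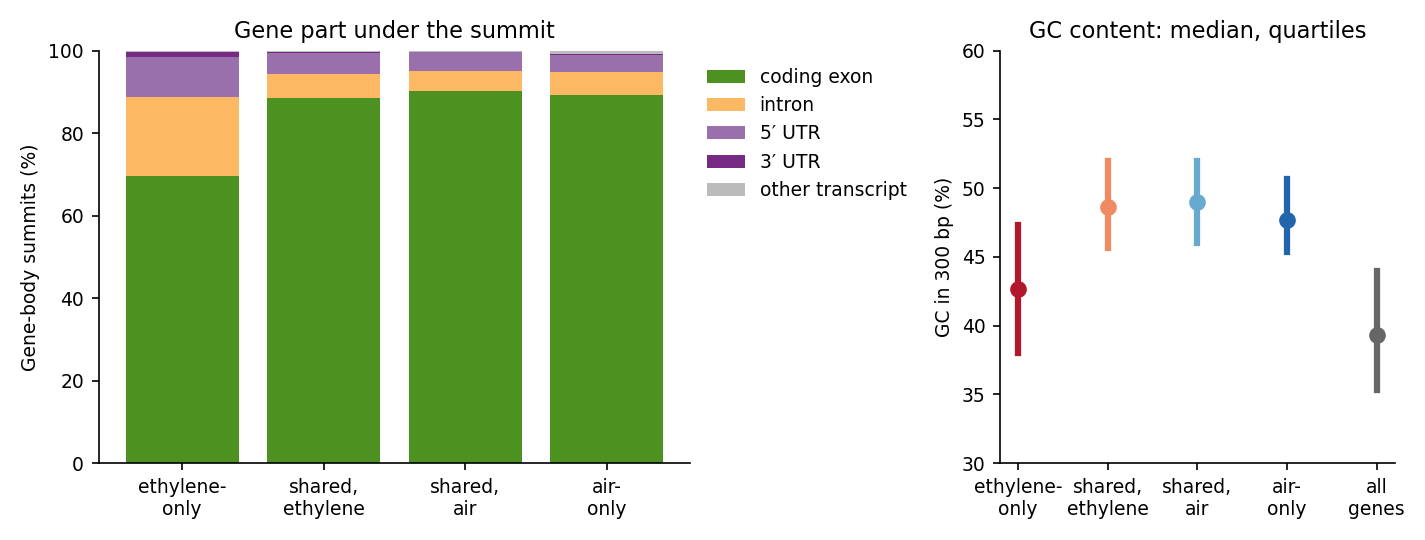
Left, percentage of gene-body summits on each part of the gene for ethylene-only peaks, shared peaks of the ethylene list and of the air list, and air-only peaks. Right, GC content (%) of the 300 bp around summits, and of 300 bp in all protein-coding genes, with points for medians and bars from the lower to the upper quartile. Ethylene-only summits have the largest intron share (19.1%) and the lowest GC content of the 4 classes (median 42.7%).

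The base composition under the summits moved with the same classes. In the 300 bp around the summit, median GC content was 42.7% for ethylene-only peaks, 48.7% for shared ethylene peaks, 49% for shared air peaks and 47.7% for air-only peaks. In 300 bp centred 410 bp into every protein-coding gene the median was 39.3%, so each class of peak was richer in GC than genes at large. The gap was present within coding exons, where ethylene-only summits had a median of 45.7% and shared ethylene summits 49.3%. It was present within introns too, at 37.3% and 41% for the same classes. Among peaks kept at the common control depth the medians were 45% and 49.3%. The part of base composition in what was called in each list was not tested.

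A search for 4 short motifs on both strands of these windows gave the widest differences from all genes for the motif made of G and C alone. GCCGCC, the core of the GCC box bound by ethylene response factors, was in 14.3% of ethylene-only windows and 26.2% of shared ethylene windows. It was in 26.7% of shared air windows, 21.4% of air-only windows and 8.56% of windows in all genes. CACGTG, the G-box, which reads alike on both strands, was in 3.31% of ethylene-only and 5.56% of shared ethylene windows, against 3.35% of windows in all genes. ATGTATCT, a form of the sequence bound by EIN3, was in 0.95% of ethylene-only and 0.672% of shared ethylene windows, against 1.5% of windows in all genes. The repeat GAAGAAGAA was in 12.5% of ethylene-only and 10.13% of shared ethylene windows, against 10.9% of windows in all genes. The windows in all genes were not matched to the summits in gene part. These motifs do not overlap each other, and a match is a description of the letters only.

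Peaks away from genes were mostly in the ethylene-only class. A summit outside gene bodies and more than 1 kb from any protein-coding gene was found for 528 ethylene-only peaks (6.11%, 5.63 to 6.64%), against 40 shared ethylene peaks (0.927%, 0.682 to 1.26%). It was found for 10 air-only peaks and 41 shared air peaks. Of the 528 ethylene-only summits, 390 (73.9%) were in no annotated gene, 67 in lncRNA genes and 62 in pseudogenes, a class that holds transposon genes in this annotation. Of the 40 shared ethylene summits, 28 were in pseudogenes. In the highest-ranked 25% of the ethylene list the share away from genes was 2.7% for ethylene-only and 0.892% for shared peaks. Only 72 of the 528 ethylene-only peaks were kept at the common control depth. Among peaks kept there the share was 2.52% for ethylene-only and 0.965% for shared peaks. Ethylene-only peaks were a median of 7336 bp from the nearest air peak, and 3.86% were within 500 bp of one. No distance was computed for randomly placed sites, and peaks that overlap an air peak are left out of this class by its definition. Of all 27444 protein-coding genes, 4589 held an air summit. Of the ethylene-only summits in gene bodies, 562 of 7698 (7.3%) lay in a gene that also held an air summit, a share that the class definition lowers. *EBF1*, described below, is such a gene.

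The ethylene-only peaks of highest rank were in 10 genes. All 10 were kept at the common control depth, which rests on the same coverage and background as their rank and adds no support. The highest were in *AT2G43540* (rank 26 of the ethylene list, fold enrichment 3.4, width 497 bp) and *AT2G22790* (rank 31, fold enrichment 3.13), both of unknown function. *AT5G51910*, a TCP transcription factor gene, was at rank 69 with a fold enrichment of 3.21. *MBD8*, which encodes a methyl-CpG-binding domain protein, was at rank 72 with a fold enrichment of 3.24. The heat shock protein gene *HSP1* (*AT4G14830*) was at rank 112, and *AT4G29260*, an acid phosphatase gene, at rank 88. The others were *AT3G07350*, *AT4G25170*, *AT3G07570* and *AT5G59790*, at ranks 75 to 132. None of the 10 genes held an air summit, and all 10 summits were in coding exons, between 383 bp and 1197 bp from the gene start.

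The widest ethylene-only peak was in *PIF3*, a bHLH transcription factor that interacts with phytochrome and is a target of EIN3 in seedling growth. It spanned 2033 bp at rank 2891 with a fold enrichment of 2.08, and a further ethylene-only peak of 346 bp lay downstream in the same gene. *AT1G36050*, a gene of vesicle transport in the endoplasmic reticulum, had a peak of 1739 bp. *AT1G01490*, *AT5G56240* and *AT5G58620*, a CCCH zinc finger gene, had peaks of 1710, 1613 and 1546 bp. Of these 5 peaks, 4 were kept at the common control depth, all but that of *AT1G01490*. The body of *AT5G58620* also held 1 air summit.

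The strongest peaks of the ethylene list were shared. Rank 1 was the peak of *AT4G27280*, with a fold enrichment of 4.74, and its air partner was at rank 784. *TPR14* was at rank 2 with ethylene and 265 in air. *ERF7*, which encodes an ethylene response factor family repressor, was at rank 8 with ethylene and 206 in air, and its peak was 1721 bp wide with ethylene and 651 bp in air. *APY2*, an apyrase gene, was at rank 5 with ethylene and 272 in air. *XSP1*, a xylem serine peptidase gene, was at rank 9 with ethylene and 543 in air. The others of the 10 were *AT1G80180*, *AT4G29780*, *AT2G27580*, *AT3G18170* and *AT3G57790*. The widest shared ethylene peak, 2341 bp, was in *LRX3*, a leucine-rich repeat extensin of the cell wall, where the air list had a peak of 474 bp at rank 4195. In *AT5G01830*, an ARM repeat gene, both peaks were wide, at 2110 bp with ethylene and 1897 bp in air. The remaining 3 of the widest, in *AT3G19540*, the acyl-ACP thioesterase gene *FATB* and the lectin receptor kinase gene *LECRKA4.3*, were 2032 to 2102 bp with ethylene and 225 to 554 bp in air.

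Air-only peaks were lower in their list. The highest, in the jumonji-family gene *AT5G46910*, was at rank 178 of 5012 with a fold enrichment of 3.68. *AT5G56880*, of unknown function, was at rank 196 and *AGP1* at rank 294. *QSOX1*, a sulfhydryl oxidase gene, was at rank 309 with a fold enrichment of 3.49. *HCF153*, a nuclear gene needed for the chloroplast cytochrome complex, was at rank 432. *AT2G32020*, *AT3G19000*, *FRUCT5* and *AT2G17240* were at ranks 302 to 451. The remaining 1 of the 10 highest air-only peaks was in no protein-coding gene body. *FRUCT5* also held an ethylene summit elsewhere in the gene, whereas the other 8 genes held none. The widest air-only peak, 690 bp, was in the polyubiquitin gene *UBQ3*, which has close relatives in the genome, and those of *AILP1*, *AT2G40920*, *AT1G49900* and *AT2G05790* were 536 to 564 bp. *UBQ3*, *AILP1* and *AT2G05790* each also held 1 ethylene summit outside these peaks.

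Among shared peaks some genes changed place. Ranks were turned into percentiles over the 4293 pairs, with 0 as the highest, and the 5 genes furthest apart each way were taken. *HB24*, a homeobox gene, was at percentile 0.792 with ethylene and 100 in air, with a peak of 748 bp with ethylene and 227 bp in air. *ADT5*, an arogenate dehydratase gene of phenylalanine synthesis, was at 0.536 with ethylene and 99.2 in air. *bZIP1*, a leucine zipper transcription factor gene of the response to low sugar, was at 2.77 with ethylene and 97.1 in air. *AT2G36320*, an A20/AN1 zinc finger gene, and *CYP84A4*, a cytochrome P450 gene, were the others that ranked higher with ethylene. In the opposite direction, *At17.1* (*AT2G01340*) was at percentile 98 with ethylene and 1.65 in air, with peaks of 449 bp with ethylene and 601 bp in air. *TSPO*, a stress-induced gene annotated as like the tryptophan-rich sensory proteins, was at 95.9 with ethylene and 3.05 in air. *RHA1A* and *AT5G42200*, both RING-type genes, and *TCH2*, a touch-inducible calmodulin-like gene, were the others that ranked higher in air. In all 5 the ethylene peak was the narrower one, with widths of 231 to 449 bp with ethylene and 335 to 601 bp in air.

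Genes were then sorted by whether their body held a summit. Of 27444 protein-coding genes, 6489 (23.6%) held an ethylene summit and no air summit, 4150 (15.1%) held a summit in both lists and 439 (1.6%) held an air summit and no ethylene summit. With the control depth made common, these shares were 9.16% for ethylene alone, 10.8% for both and 5.96% for air alone. The last share could only rise there, since air peaks stayed as called. By the study's rule of a peak within 2 kb, 8999 genes had an ethylene peak and no air peak, and 3943 did at the common control depth. More than 1 ethylene summit was found in 1152 genes, and more than 1 air summit in 297. The 9 gene lists below are read against these shares, and the plot of gene lists shows them all.

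**Figure D4:**
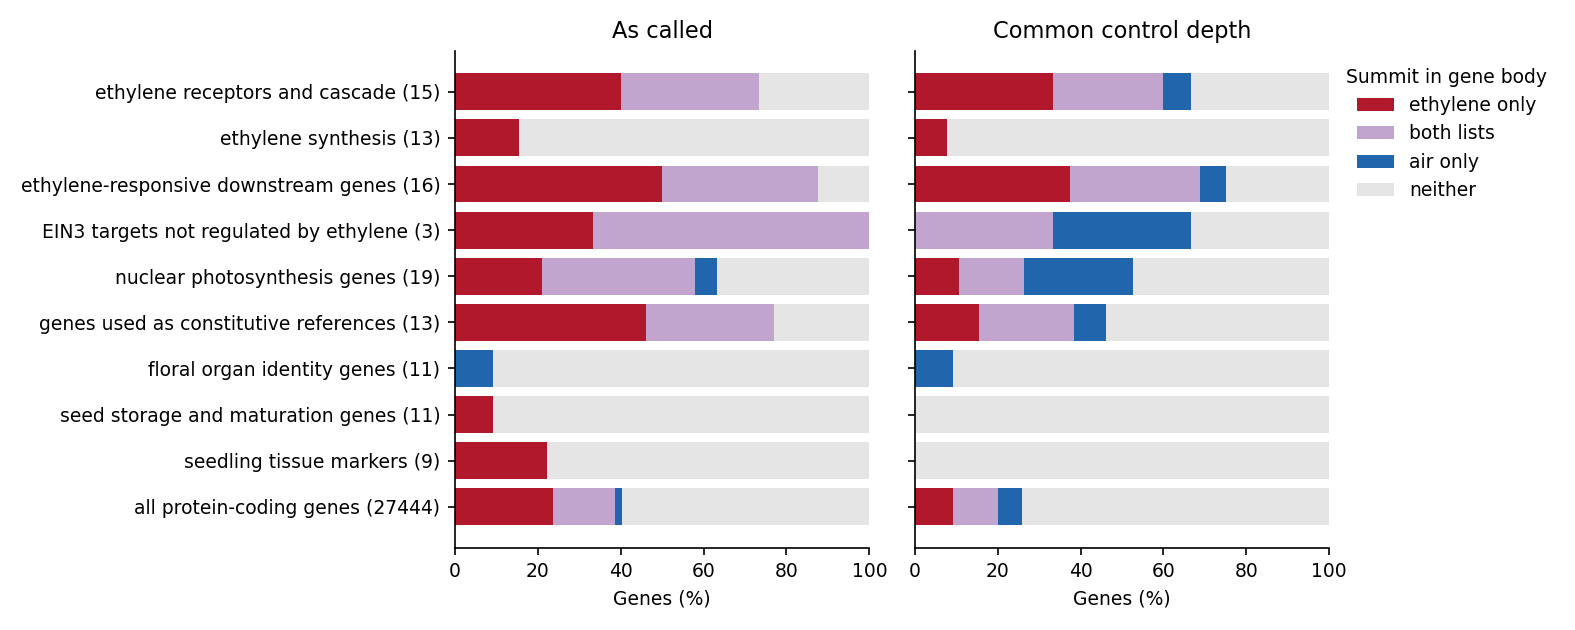
Percentage of the genes of each list (number of genes in brackets) whose body held an H3K23Ac summit in the ethylene list only, in both lists, in the air list only or in neither, as called (left) and at the common control depth (right). The lowest bar is all 27444 protein-coding genes. Ethylene-responsive genes hold an ethylene summit in 14 of 16 cases, and the floral and seed lists hold almost none.

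The ethylene receptors and the cascade below them held a summit in 11 of 15 genes: 6 with ethylene alone and 5 in both lists. With the control depth made common, 5 held an ethylene summit alone, 4 held both and 1, *EIL1*, held air summits alone, as its ethylene peaks fell out. The receptor genes *ETR1*, *ERS1* and *EIN4*, and *EIN2*, held none in either list, although each held an H3K9Ac summit with ethylene and in air. The receptor gene *ETR2* held ethylene-only summits at ranks 6407 and 7360, and *ERS2* one at rank 2648 with a width of 972 bp. *RAN1*, *ENAP1* and *EIN3* held ethylene-only summits at ranks 1383, 1511 and 4355, all kept at the common control depth. That of *RTE1*, at rank 6747, was lost there.

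Genes of the cascade with a summit in both lists were *EBF1*, *EBF2*, *CTR1*, *EIN5* and *EIL1*. Ranks and top percentages place a peak within its own list only, since the lists differ in length. *EBF1* encodes an F-box protein that marks EIN3 and EIL1 for degradation, and is itself induced by EIN3. It held 4 ethylene summits. The strongest was ethylene-only, in the 5′ UTR at rank 322 with a fold enrichment of 2.98 and a width of 312 bp. A shared peak over the coding sequence was at rank 634 with ethylene, 1356 bp wide, and at rank 3167 in air, 367 bp wide. The 5′ UTR peak lay within 200 bp of this shared ethylene peak. Merging within 200 bp joins them, and the 5′ UTR peak is then part of a shared peak. *EBF2*, its paralog, had a shared peak at rank 2311 with ethylene, 1133 bp wide, and at rank 4369 in air, 353 bp wide. *CTR1*, the kinase that represses the pathway, had one at rank 799 with ethylene, 896 bp wide, and at rank 4702 in air, 525 bp wide. *EIN5*, an exoribonuclease gene, had one at rank 5424 with ethylene, 227 bp wide, and at rank 1141 in air, 261 bp wide. *EIL1* had 2 shared peaks, and neither ethylene peak was kept at the common control depth.

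**Figure D5:**
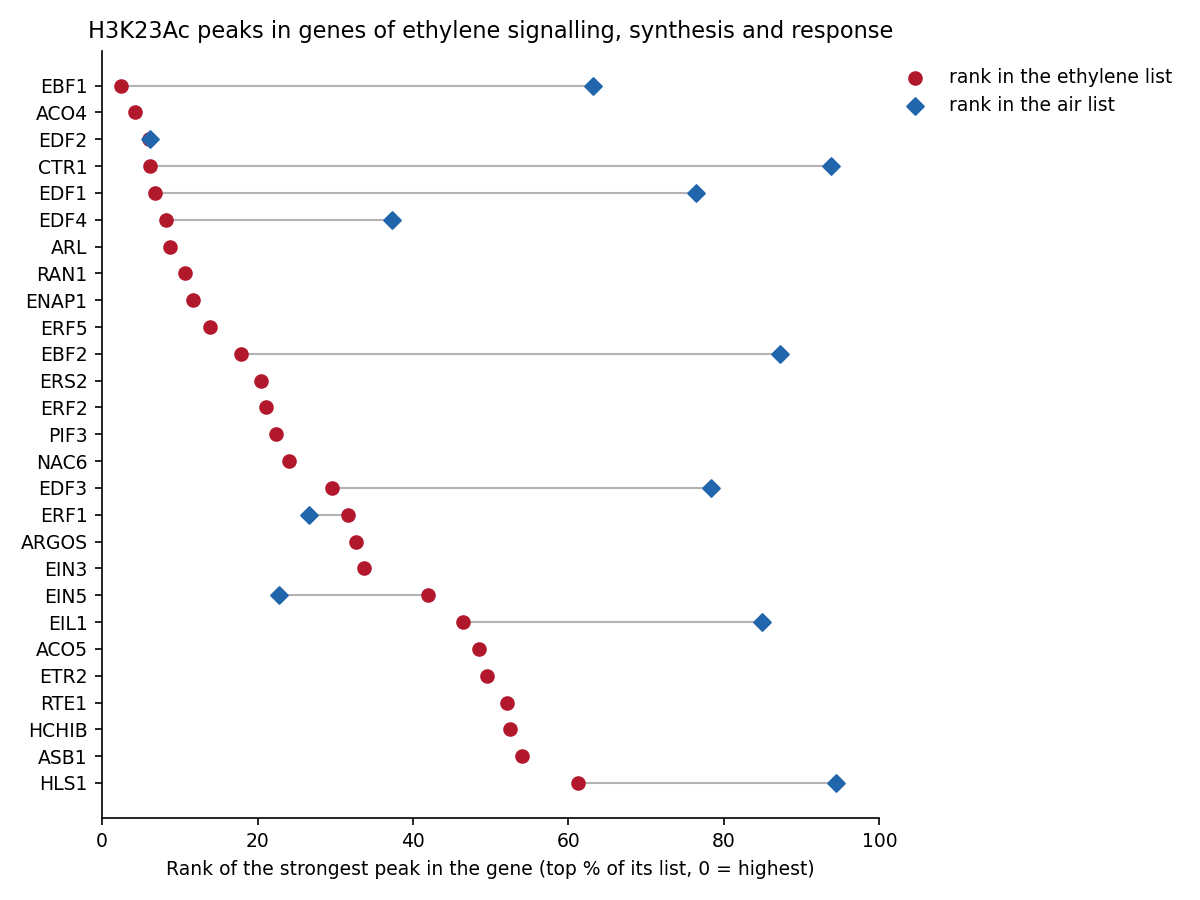
Rank of the strongest H3K23Ac peak in the body of each listed gene of ethylene signalling, synthesis and response, as the top percentage of its own list (0 is the highest), for the ethylene list (red circles) and the air list (blue diamonds). Genes without a diamond held no air summit, and listed genes with no summit are left out. The strongest peaks of a gene in each list need not overlap. *EBF1* is at 2.49% with ethylene and 63.2% in air, but the ethylene peak that overlaps its air peak is at 4.9%. The lists hold 12950 peaks with ethylene and 5012 in air.

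Of the 16 downstream genes that respond to ethylene, 8 held an ethylene summit alone, 6 held summits in both lists and 2 held none, against 23.6% and 15.1% of all genes for the first and second state. The counts with common control depth were 6 for ethylene alone, 5 for both and 1, *HLS1*, for air alone. The ethylene peak of *HLS1* fell out there. For all genes the shares there were 9.16%, 10.8% and 5.96%. The 13 constitutive reference genes described below had a like split as called, with 46.2% for ethylene alone and 30.8% for both. With common control depth their shares were 15.4% and 23.1%. The ethylene response DNA binding factor genes *EDF1*, *EDF2*, *EDF3* and *EDF4* all had shared peaks. *EDF2* was at rank 773 of 12950 with ethylene, 1100 bp wide, and at rank 306 of 5012 in air, 827 bp wide. *EDF1* was at rank 886 with ethylene, 1086 bp wide, and at rank 3832 in air, 758 bp wide. *ERF1*, a transcription factor gene directly below EIN3, was at rank 4104 with ethylene and 1332 in air. *HLS1*, needed for the apical hook, had a shared peak of 1019 bp with ethylene and 478 bp in air, in the lower part of both lists. The growth genes *ARL* and *ARGOS* held ethylene-only summits at ranks 1123 and 4225. *ERF5* and *ERF2*, of the ethylene response factor family, and *NAC6*, a NAC transcription factor gene of leaf senescence, held them at ranks 1800, 2733 and 3110, and *PIF3* at rank 2891. The chitinase gene *HCHIB* and *ASB1* held them at ranks 6802 and 6990, and these 2 were not kept at the common control depth. *ASA1* and *TAA1*, of tryptophan and auxin synthesis, held none. Of the 3 EIN3 targets that ethylene does not regulate, *PHYA* held an ethylene-only summit at rank 7585, and *WRKY4* and *BES1* held shared peaks. With the control depth made common, *PHYA* held no summit, *WRKY4*, whose ethylene peak fell out, held an air summit alone and *BES1* held both. *BES1* was at the highest 7.99% with ethylene and 13.6% in air.

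Of 13 genes of ethylene synthesis, 2 held an ethylene summit alone and 11 held none, where 16366 of all 27444 genes held none. A gene without a called summit may still carry the mark below what these lists could call. None of the 9 ACC synthase genes, which make the precursor ACC, held a summit. Among ACC oxidase genes, *ACO4* held an ethylene-only peak of 859 bp at rank 540 with a fold enrichment of 2.86, and it was kept at the common control depth. *ACO5* held an ethylene-only peak of 254 bp at rank 6274, which was lost there, while *ACO1* and *ACO3* held none.

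The photosynthesis and reference lists, outside the ethylene pathway, held summits in 12 of 19 genes and 10 of 13 genes. Of 19 nuclear photosynthesis genes, 4 held an ethylene summit alone, 7 both and 1 an air summit alone. The split with common control depth was 2 with ethylene alone, 3 with both and 5 with air alone. *PSAD1*, a photosystem I subunit gene, was at the highest 17.1% with ethylene and 1.4% in air, and *LHCB4.1*, a light-harvesting gene, at 6.28% with ethylene and 28.3% in air. The *LHCB1* and *RBCS* genes are near-identical copies, so the states of single members are uncertain. Of 13 genes used as constitutive references, 6 held an ethylene summit alone and 4 held both. At the common control depth 2 held ethylene alone, 3 both and 1 air alone. *ACT7*, an actin gene, was at the highest 19.7% with ethylene and 67.9% in air. *ACT2*, *ACT8*, *UBQ10* and *GAPC2* had ethylene-only summits in the lower part of the list, and none of these was kept at the common control depth.

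Genes of flowers and maturing seeds held few peaks, in short lists of 11 genes each. Of all 27444 protein-coding genes, 16366 held no summit in either list. Among 11 floral organ identity genes, none held an ethylene summit, and *LFY*, the regulator of floral meristem identity, held 2 air-only summits at ranks 1142 and 3957. Among 11 seed storage and maturation genes, *CRU2*, a cruciferin gene, held an ethylene-only summit at rank 8824, which fell out at the common control depth, and the other 10 held none. Of 9 markers of seedling tissues, *SCR* and *SHR*, which pattern the root ground tissue, held ethylene-only summits at ranks 6092 to 6957, none kept at the common control depth. *ATML1*, *STM*, *WUS*, *WER*, *RHD6*, *HB8* and *APL*, which mark the epidermis, shoot meristem, root hair cells or vascular tissue, held none, so these lists could not be used to follow the share of any tissue.

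The same places were marked by other acetylated lysines. Of the ethylene-only H3K23Ac peaks, 85.4% overlapped an H3K9Ac peak of Col-0 with ethylene and 49.1% (48.1 to 50.2%) overlapped one in air. Shared ethylene peaks overlapped them in 96.7% and 85.2% of cases. The H3K14Ac list of Col-0 overlapped 68.7% of ethylene-only peaks with ethylene and 2.32% in air, where it holds 3011 peaks. Each H3K14Ac list of Col-0 rests on an unreplicated library, unlike the pooled libraries of H3K9Ac and H3K23Ac. The H3K9Ac and H3K14Ac lists of Col-0 share the IgG control of their treatment with the H3K23Ac list, so the overlaps are not independent of it. Of the ethylene-only peaks, 717 (8.3%) overlapped no H3K9Ac or H3K14Ac peak of Col-0 in either treatment, against 38 of the shared ethylene peaks (0.881%). Among air-only peaks the number was 133 of 588 (22.6%, 19.4 to 26.2%). Air-only peaks overlapped the H3K14Ac list in air in 28.9% of cases, against 57.1% for shared air peaks.

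In *ein2-5*, which has its own controls, many of the ethylene-only places were also called. The H3K23Ac list of *ein2-5* overlapped 55.5% of ethylene-only peaks with ethylene (54.4 to 56.5%) and 59.4% in air (58.4 to 60.4%). It overlapped 81% of shared ethylene peaks with ethylene and 88.2% in air. Air-only peaks were overlapped in 35.4% of cases with ethylene and 49% in air. The *ein2-5* ethylene list was called against 4.33 M control tags, the *ein2-5* air list against 13.7 M and the Col-0 air list against 2.44 M. An ethylene-only place in Col-0 was more often than not called in air in the mutant. The H3K23Ac lists of *ein2-5* hold 12212 peaks in air and 10909 with ethylene, against 5012 in the Col-0 air list. No overlap was computed for randomly placed peaks, and the part of list length and control depth was not tested. The intron share of summits was 21.3% in the *ein2-5* ethylene list and 20.9% in the *ein2-5* air list, against 14.4% in the Col-0 ethylene list and 5.04% in the Col-0 air list. In the Col-0 H3K9Ac lists it was 24% with ethylene and 26.9% in air. In the Col-0 H3K14Ac lists it was 12% with ethylene and 6.55% in air, and in the *ein2-5* H3K14Ac lists 12.7% with ethylene and 13.7% in air. All 3 Col-0 air lists were called against the same 2.44 M control tags. Median GC content under the summits was 45% in the Col-0 H3K23Ac ethylene list and 49% in the air list.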

How the data were processed

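ChIP-seq of H3K23Ac from Col-0 seedlings was used, with 2 libraries per treatment. Per the submitters' processing notes and the study's methods, the authors mapped reads with Bowtie2 2.1.0 to TAIR10, used SAMtools, and called peaks with MACS2 2.1.0.20150603 on the pooled libraries against IgG. Per the file headers, the P threshold was 0.01, fragments were extended to 200 bp and the genome size was 130000000. The deposited lists give, at each summit, the pileup (a coverage signal scaled to the control), the fold enrichment (a ratio), and both the P and the q value as −log10. The headers state that q was not calculated, yet the deposited −log10 q column holds values, used as they stand.

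The local background was computed back from the pileup and its fold, and recomputed −log10 P differed from the authors' by a median of at most 0.000826. Summits were placed on 27444 protein-coding genes of RefSeq TAIR10.1, whose nuclear coordinates are those of TAIR10, by the transcript with the longest coding sequence. Named genes were those of 9 gene lists, those holding the 10 highest-ranked and 5 widest peaks of each class, and the 5 pairs that moved most in rank each way. Of the listed genes, 1 is not reported here. The members, lists and comparisons were chosen with earlier results of these data known. Motifs were chosen after the peaks were seen. Overlap, placing and depth scaling were tested on simulated data. Python 3.11.15, numpy 2.4.6, scipy 1.17.1, pandas 2.3.3 and matplotlib 3.10.9 were used. Scaling to a common control depth keeps ethylene peaks at a Poisson P of 0.01 or less. Alternatives were q under 0.05, fold enrichment of at least 2, merging within 200 bp, overlap of at least 50%, summit inclusion, equal list length, common control depth, and gene windows of 1 kb and 0 kb.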

Additional observations from a re-analysis of the deposited data

How the results depend on the processing

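The share of ethylene peaks without an air peak (66.7%) was 78.5% at q under 0.05 in both lists, 61.8% at a fold enrichment of at least 2, 73.5% at an overlap of at least 50% of the peak, 68.3% by summit, 45.5% at equal list length and 48.8% at the common control depth. The share of air peaks without an ethylene peak (11.7%) was 42.8% at a fold enrichment of at least 2, 13.2% at 50% overlap, 12.8% by summit, 43.3% at equal length and 37.8% at the common control depth. The median width of ethylene-only peaks (313 bp) was 333 bp by q, 375 bp by fold enrichment, 316 bp when merged, 326 bp at 50% overlap, 389 bp at equal length and 379 bp at the common control depth. Their share in gene bodies (89.1%) was 90.9%, 91.7%, 89.9%, 94.9% and 94.7% by q, by fold enrichment, at 50% overlap, at equal length and at the common control depth. Their share in the highest 25% of the list (14.1%) was 18% by q, 16.4% by fold enrichment and 17.9% at 50% overlap. Genes with an ethylene peak and no air peak within 2 kb (8999) were 5234 by fold enrichment, 3251 at equal length and 3943 at the common control depth, against 11245 by q and 8133 and 6598 with gene windows of 1 kb and 0 kb. The cause of these moves was not tested, beyond the fewer ethylene peaks that equal length and the common control depth leave. The share of air-only summits in gene bodies moved by less than its counting interval in every alternative.

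No paired analysis was possible because the replicate libraries were pooled before peak calling, and each treatment has 1 list. From these pooled lists no library could be left out and no spread between replicates could be computed. The common control depth scales values at summits called at the deeper control and cannot change peak borders or remove air peaks. The control tag counts are those of the file headers.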
